A study of Mus musculus with 2 samples.

Results

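The TNF and death receptor family was followed here through 9 genes chosen by symbol. They were the ligand genes *Tnf*, *Lta*, *Ltb*, *Fasl* and *Tnfsf10* and the receptor genes *Tnfrsf1a*, *Tnfrsf1b*, *Fas* and *Tnfrsf10b*. All 9 symbols were found among the 32285 genes of both count matrices. The cells came from tumors that grew from MC38 cells, a mouse colon cancer line, after injection under the skin of C57BL/6 mice. Live cells were sorted after red blood cell lysis and sequenced on the 10x Genomics platform as 2 libraries, 1 for the *Lmo7*+/+ and 1 for the *Lmo7*-/- host genotype. The *Lmo7*-/- hosts lacked *Lmo7* in every tissue, the *Lmo7*+/+ hosts carried the intact gene, and the injected MC38 cells carried no such deletion in either group. How many mice stood behind each library is not given in the sources used here. With 1 library per genotype there were no replicates and no test between genotypes, and a difference between genotypes cannot be told apart from one between tumors or libraries.

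Ligands of this family are made mostly by activated immune cells, sit in the cell membrane or are shed from it, and act as trimers on receptors of neighbouring cells. TNF and lymphotoxin alpha bind TNFR1 and TNFR2, the products of *Tnfrsf1a* and *Tnfrsf1b*. TNFR1 has a death domain and can either switch on NF-kB, a transcription factor of inflammation, or start apoptosis or necroptosis, whereas TNFR2 has no death domain and is best known for sustaining regulatory T cells. Lymphotoxin beta anchors lymphotoxin alpha in the membrane and signals through the lymphotoxin beta receptor to organise lymphoid tissue. FAS ligand and TRAIL, the products of *Fasl* and *Tnfsf10*, are death ligands of cytotoxic lymphocytes, and their receptors FAS and the mouse TRAIL receptor, the products of *Fas* and *Tnfrsf10b*, recruit FADD and caspase-8 to kill the target cell.

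After filtering, 13542 cells of the *Lmo7*+/+ library and 11860 cells of the *Lmo7*-/- library remained, with medians of 4535.5 and 4304.5 unique molecular identifiers (UMIs, each the tag of a captured RNA molecule). Clusters that carried the markers of a cell type were named after it with the ending "-like", and 10 of 30 clusters stayed unnamed. Of the barcodes, 175 occurred among the kept cells of both libraries, and the paired profiles (median correlation 0.398) were no more alike than unpaired ones (0.405). The genotype label could not be checked, because *Lmo7* had 11 and 12 counts in macrophage-like cells (0.612 and 0.664 CPM, counts scaled to 1000000 UMIs) and 18 and 12 counts in endothelial-like cells (36.4 and 29.1 CPM). The second library is therefore called the library labelled *Lmo7*-/- below, and paired values are given with the *Lmo7*+/+ library first. Macrophage-like cells carried all 12 macrophage markers (summed level 20690 and 24408 CPM), and T-like cells all 9 T cell markers (7408 and 8298 CPM).

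*Tnf*, *Lta* and *Ltb* sit next to each other on chromosome 17. On GRCm38, GENCODE release M21 places *Ltb* at 35194439-35196320 on the plus strand, *Tnf* at 35199381-35202007 on the minus strand and *Lta* at 35203165-35205351 on the minus strand. The gap from *Ltb* to *Tnf* is 3060 bases and that from *Tnf* to *Lta* 1157 bases, within a span of 10913 bases. *Fas* lies alone on chromosome 19 at 34290666-34327772 on the plus strand. The promoters of these genes are shown because the 3 neighbours had most of their UMIs in different classes and because *Fas* had the largest log2 ratio of the members in the unnamed tumor-profile cluster described further on. Each run is the 250 bases before the RefSeq start on GRCm38.p6, written 5′ to 3′ on the gene's own strand, with motif matches in capitals. The windows are chr17:35202008-35202257 on the minus strand for *Tnf*, chr17:35205352-35205601 on the minus strand for *Lta*, chr17:35194257-35194506 on the plus strand for *Ltb* and chr19:34290409-34290658 on the plus strand for *Fas*. The *Ltb* window runs past the GENCODE start at 35194439, so its last bases lie inside the GENCODE gene. Distances of motifs are to the RefSeq start.
Tnf: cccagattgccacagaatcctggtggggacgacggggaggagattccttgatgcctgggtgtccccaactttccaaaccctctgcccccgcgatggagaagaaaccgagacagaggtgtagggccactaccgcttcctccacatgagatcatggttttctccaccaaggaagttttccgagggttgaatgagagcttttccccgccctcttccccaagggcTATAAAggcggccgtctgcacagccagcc
Lta: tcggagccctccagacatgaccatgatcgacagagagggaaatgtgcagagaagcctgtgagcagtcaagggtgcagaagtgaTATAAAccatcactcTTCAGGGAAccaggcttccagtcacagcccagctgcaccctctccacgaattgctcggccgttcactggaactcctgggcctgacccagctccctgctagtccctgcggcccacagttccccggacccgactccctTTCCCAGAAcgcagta
Ltb: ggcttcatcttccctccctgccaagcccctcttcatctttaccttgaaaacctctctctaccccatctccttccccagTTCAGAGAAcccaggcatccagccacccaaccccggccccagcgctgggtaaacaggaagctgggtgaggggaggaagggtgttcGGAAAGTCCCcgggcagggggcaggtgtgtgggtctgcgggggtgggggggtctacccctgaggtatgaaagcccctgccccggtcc
Fas: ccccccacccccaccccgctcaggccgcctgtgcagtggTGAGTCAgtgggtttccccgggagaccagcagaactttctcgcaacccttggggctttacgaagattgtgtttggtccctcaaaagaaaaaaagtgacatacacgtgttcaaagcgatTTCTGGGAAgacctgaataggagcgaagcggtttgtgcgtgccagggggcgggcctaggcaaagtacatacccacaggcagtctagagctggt

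The capitals mark matches, on either strand, to 5 short patterns. These were a TATA box (TATAAA, in 12.37% of 32851 mouse promoter windows of this length), an NF-kB pattern (GGGA, any base, then TTTCC, 0.3562%), an AP-1 pattern (TGANTCA, 6.749%), a GAS pattern of STAT factors (TTCNNNGAA, 7.02%) and an ISRE pattern (GAAA, any 2 bases, then GAAA, 2.977%). The *Tnf* window held a TATA box that begins 29 bases before the start. The *Lta* window held TATAAA at 167 bases and GAS matches at 152 and 16 bases before the start. The *Ltb* window held an NF-kB match, read on the opposite strand as GGAAAGTCCC, at 87 bases and a GAS match at 172 bases. The *Fas* window held an AP-1 match at 211 bases and a GAS match at 93 bases. A match describes letters in the window and not the binding of a factor.

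Levels were read as CPM, the summed UMI counts of a gene in a cell class scaled to the total UMIs of that class and library. All intervals are at 95% and cover counting error only. They are exact Poisson intervals for levels and exact binomial ones for shares, and those of log2 ratios come from how the counts divide over the libraries by an exact binomial interval. A log2 ratio is that of the library labelled *Lmo7*-/- over the *Lmo7*+/+ library. Levels are compared between cell classes for the same gene and not between genes, since UMI counts of different transcripts are not captured alike. The ligand genes fell into a myeloid gene, *Tnf*, a group read mainly in lymphocytes, *Lta*, *Ltb* and *Fasl*, and the more widely read *Tnfsf10*. The plot of levels by class shows this split together with the receptors.

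**Figure D1:**
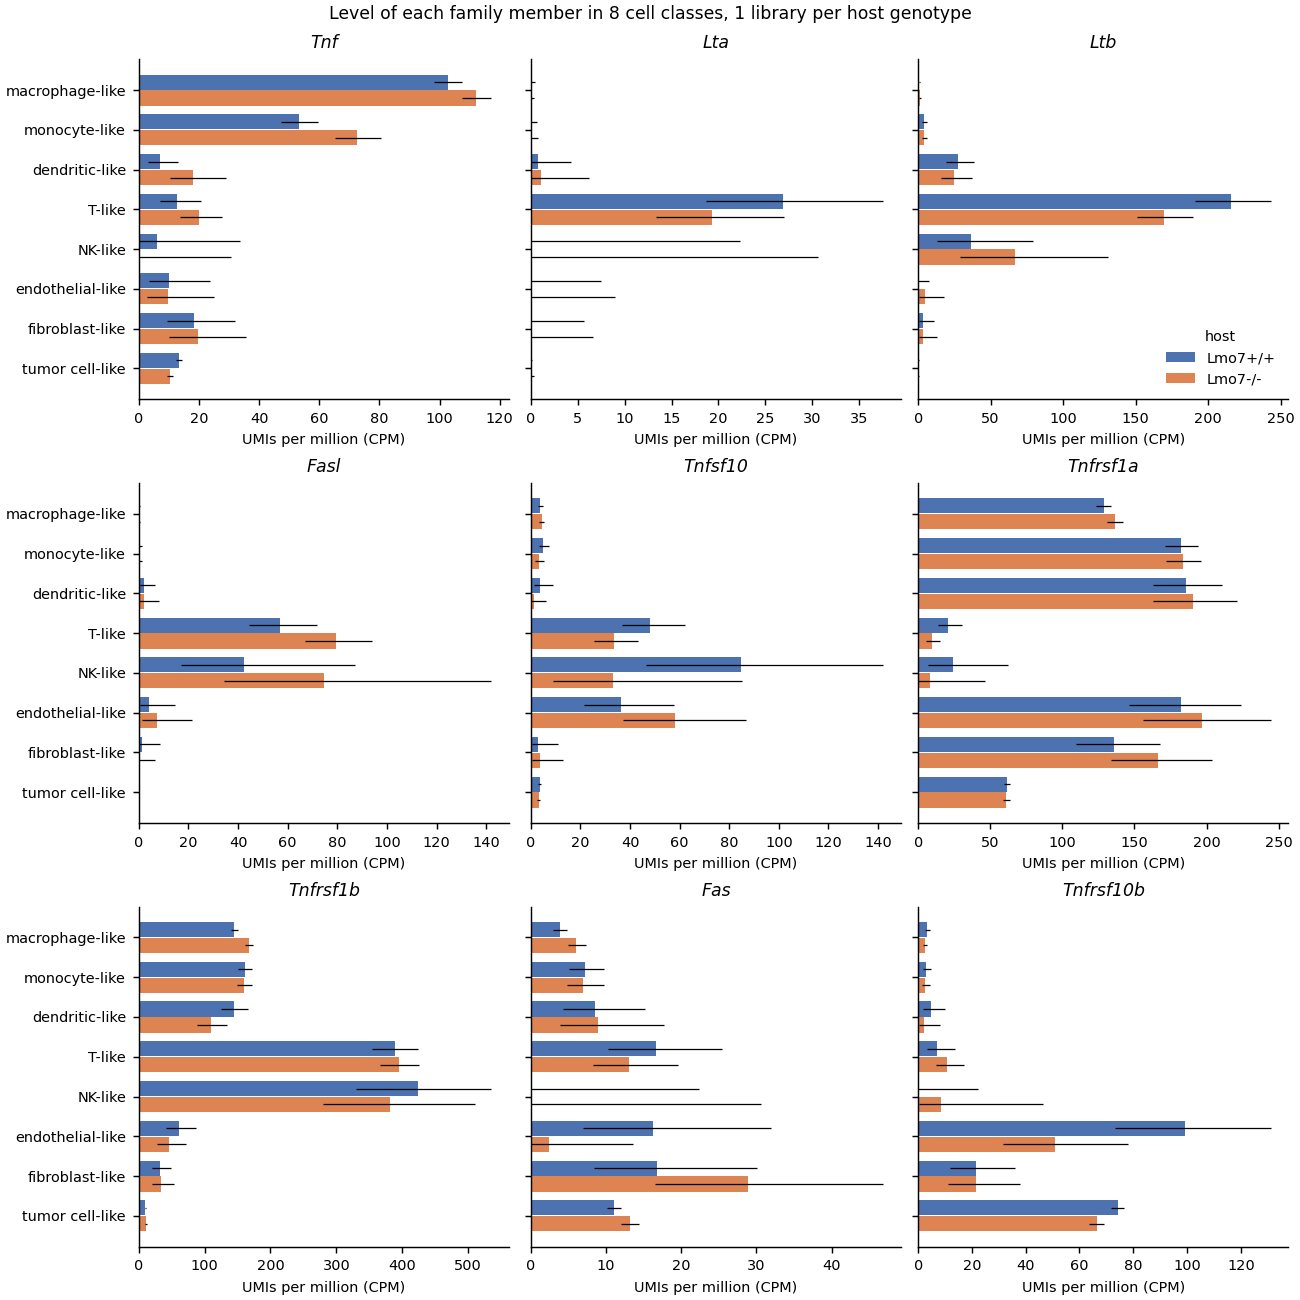
Level of each of the 9 genes (CPM, horizontal axes starting at 0) in 8 cell classes, with 1 bar for each library and error bars for the exact Poisson 95% interval. *Tnf* peaks in macrophage-like cells at 103 and 112 CPM, *Ltb* and *Fasl* in T-like or NK-like cells, *Tnfrsf1b* in NK-like and T-like cells near 400 CPM, and *Tnfrsf10b* in tumor cell-like and endothelial-like cells.

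*Tnf*, the founding cytokine of the family, was read above all in myeloid cells. Macrophage-like cells had 1846 and 2026 *Tnf* counts, or 103 CPM (98.1 to 107) and 112 CPM (107 to 117). Monocyte-like cells followed at 53.1 CPM (47.3 to 59.6) and 72.6 CPM (65.2 to 80.5). The intervals of these classes did not overlap in either library, so the order of macrophage-like over monocyte-like cells held in both. Of all 6451 *Tnf* UMIs in the kept cells, 60.0% were in macrophage-like cells, 10.1% in monocyte-like cells, 16.6% in tumor cell-like cells and 0.791% in T-like cells.

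In the other classes *Tnf* lay between 6.95 and 19.9 CPM, apart from 1 and 0 counts in NK-like cells and 2 and 8 counts in the 28 mast-like cells. Fibroblast-like cells had 18.3 and 19.9 CPM, T-like cells 12.7 and 19.9 CPM, tumor cell-like cells 13.4 and 10.4 CPM, endothelial-like cells 10.1 and 9.71 CPM and dendritic-like cells 6.95 and 17.9 CPM. Apart from tumor cell-like cells, these rest on at most 35 counts a library, and their intervals overlapped. To see how far stray macrophage RNA could reach, the 12 macrophage markers were read in the same classes as a percentage of their macrophage-like level. The median marker stood at 7.09% and 8.21% in dendritic-like cells, where *Tnf* stood at 6.77% and 16%, so *Tnf* in the dendritic-like cells of the *Lmo7*+/+ library did not exceed what the macrophage markers show there. In T-like cells the median marker stood at 1.44% and 0.761% and *Tnf* at 12.3% and 17.7%.

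*Tnf* in tumor cell-like cells, 695 and 377 counts, also exceeded the macrophage markers. They stood at a median of 0.812% of their macrophage-like level in the *Lmo7*+/+ library (0.441% to 3.70%, the highest being *Lgmn*) and of 0.550% in the library labelled *Lmo7*-/- (0.423% to 2.49%). *Tnf* stood at 13.0% and 9.26%, *Tnfrsf1b* at 7.12% and 6.51% and *Tnfrsf1a* at 47.9% and 44.8%. All 3 genes were thus above every one of the 12 markers, as the plot of stray macrophage markers shows.

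**Figure D2:**
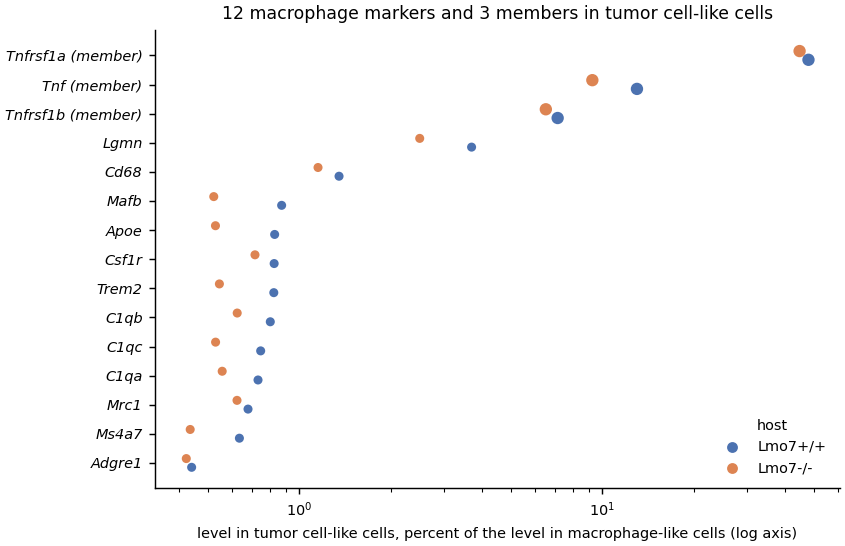
Level in tumor cell-like cells as a percentage of the level in macrophage-like cells (log axis) for 12 macrophage markers and for *Tnfrsf1a*, *Tnf* and *Tnfrsf1b*, with 1 point for each library. The markers lie between 0.423% and 3.70%, and the 3 family genes between 6.51% and 47.9%.

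Shares of cells gave the same order of classes. After each cell was thinned to 1500 UMIs, a *Tnf* UMI was found in 10.7% of 2980 macrophage-like cells (9.58% to 11.8%) and in 12.4% of 3340 (11.3% to 13.6%), with 300 and 427 shallower cells left out. Before thinning the shares were 25.7% and 24.7%, at median depths of 5015.5 and 4270 UMIs. Tumor cell-like cells had a *Tnf* UMI in 2.19% of 4520 and 1.20% of 3249 thinned cells (598 and 376 left out), against 9.69% and 7.72% unthinned at 7765.5 and 7609 UMIs. T-like cells, which carry far fewer UMIs (2220.5 and 2162), had one in 4 of 332 and 10 of 452 thinned cells.

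Between the libraries, *Tnf* in macrophage-like cells differed little, with a log2 ratio of 0.13 (0.04 to 0.22). The median ratio of all 12062 genes with at least 20 counts in these cells was -0.11, and scaling by TMM, which removes that shift, gave 0.24 for *Tnf*. Taking macrophage-like cells from clusters at a resolution of 1.0 gave -0.07, so the direction of this difference depended on where the class was drawn. In monocyte-like cells the *Tnf* ratio was larger, at 0.45 (0.22 to 0.68), and over 9 alternatives this ratio lay between 0.24 and 0.81. The dendritic-like ratio of 1.37 (0.10 to 2.73) rests on 9 and 16 counts.

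Tumor cell-like cells went the other way, with *Tnf* lower in the library labelled *Lmo7*-/- (log2 ratio -0.36, -0.55 to -0.18). That direction was lost when only cells with a tumor marker UMI and no UMI of another lineage's defining markers were taken, which gave 10.5 and 12.1 CPM and a log2 ratio of 0.22. Immediate early and heat shock genes, which cells switch on during tissue dissociation, moved with it. *Fos* was at 615 and 409 CPM and *Hspa1a* at 4.65 and 1.30 CPM in tumor cell-like cells, and their part in the *Tnf* difference was not tested. In monocyte-like cells, where *Tnf* was higher, *Fos* was at 793 and 631 CPM and *Hspa1a* at 63.6 and 35.7 CPM, also lower.

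Macrophage-like cells were clustered again, and *Tnf* differed more among the 7 clusters than between the libraries. In the *Lmo7*+/+ library it ran from 65.3 CPM in cluster 5, whose leading genes *H19* and *Rhox5* are genes of the tumor cells, to 243 CPM (270 counts) in cluster 6, led by the interferon-induced genes *Ifit3* and *Ifit2*. In the library labelled *Lmo7*-/- it ran from 92.3 CPM in cluster 1, led by *Igkc* and *Procr*, to 272 CPM (113 counts) in cluster 7, led by *Retnla* and *Folr2*. In the *Lmo7*+/+ library clusters 6 and 7 lay above the other clusters, and in the library labelled *Lmo7*-/- cluster 7 did, whereas cluster 6 overlapped cluster 2. Cluster 7 carried the genes *Folr2* and *Lyve1* known from tissue-resident macrophages and had 210 CPM of *Tnf* in the *Lmo7*+/+ library.

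The difference between the libraries had no common direction across these clusters. *Tnf* was higher in the library labelled *Lmo7*-/- in cluster 2, led by *Cd300e* and *Fcrl5*, where 289 and 385 counts gave 70.4 CPM (62.5 to 79) and 143 CPM (129 to 158). Its log2 ratio there was 1.02 (0.80 to 1.25). It was lower in the interferon-led cluster 6, at 243 CPM (214 to 273) against 159 CPM (129 to 194), with a ratio of -0.61 (-0.96 to -0.27). Cluster 5 also differed, by 0.71 (0.22 to 1.20), and the intervals of clusters 1, 3, 4 and 7 reached 0 or below. Cluster 1, the largest, held 767 and 1529 cells. Of its cells, 66.6% came from the library labelled *Lmo7*-/-, and whether the cluster reflects the library or a cell state was not tested. The plot of macrophage-like clusters sets *Tnf* beside its receptors, which varied less between the libraries.

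**Figure D3:**
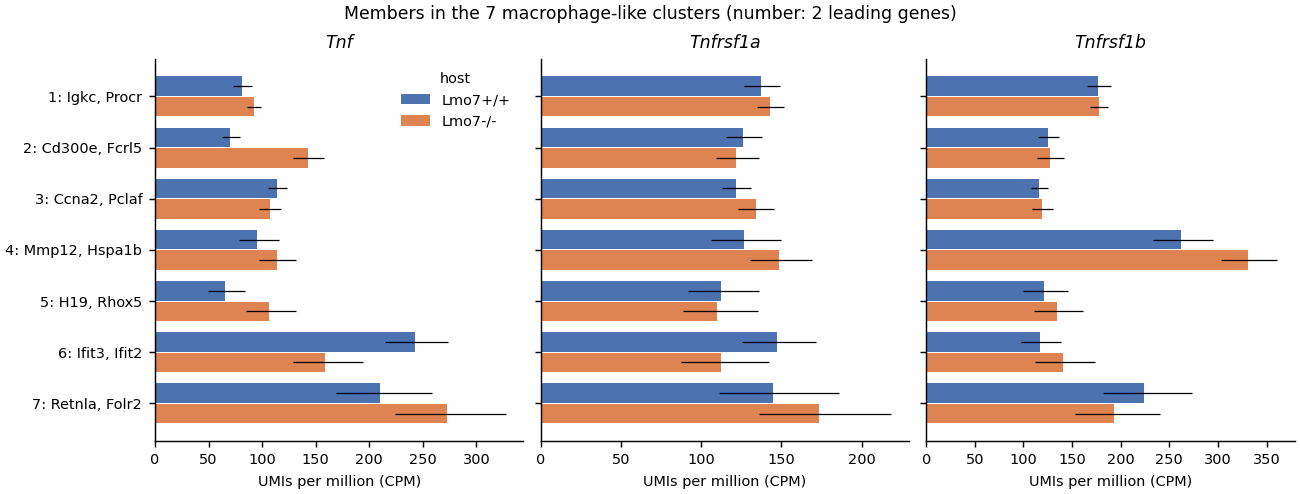
*Tnf*, *Tnfrsf1a* and *Tnfrsf1b* (CPM, with exact Poisson 95% intervals) in the 7 clusters of macrophage-like cells, with 1 horizontal bar for each library. *Tnf* is high in clusters 6 (243 and 159 CPM) and 7 (210 and 272 CPM), and the libraries stand apart most in cluster 2 (70.4 and 143 CPM), whereas *Tnfrsf1a* stays between 110 and 174 CPM.

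*Lta*, *Ltb* and *Fasl* were read mainly in T-like cells, which held 65.4% of the 104 *Lta* UMIs, 65.5% of the 872 *Ltb* UMIs and 67.5% of the 314 *Fasl* UMIs. In macrophage-like cells *Lta* had 2 and 1 counts and *Fasl* 3 and 2 counts. A *Fasl* UMI was found in 1 of 2980 and 1 of 3340 thinned macrophage-like cells, against 26 of 332 T-like cells (7.83%, 5.18% to 11.3%) and 50 of 452 (11.1%, 8.32% to 14.3%), with 106 and 165 shallower T-like cells left out. Before thinning, 14.8% and 19.6% of the T-like cells and 0.0915% and 0.0531% of the macrophage-like cells had one. *Tnf*, whose gene lies 1157 bases from *Lta* and 3060 bases from *Ltb*, had most of its UMIs in another class than these neighbours.

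*Lta*, which encodes secreted lymphotoxin alpha, stood at 26.9 CPM (18.6 to 37.6) and 19.3 CPM (13.4 to 27.0) in T-like cells, from 34 counts in each library. The interval of its log2 ratio, -1.21 to 0.25 around -0.48, spanned 0. The highest *Lta* level among T-like clusters was in a cluster of 52 cells led by *Penk* and *Ccl1*, at 191 CPM (10 counts) and 135 CPM (12 counts). T-like cells gated by a *Cd4* UMI had 87.3 and 78.9 CPM from 7 and 10 counts, and those gated by a *Cd8a* or *Cd8b1* UMI had 23.4 and 14 CPM. Monocyte-like, NK-like, endothelial-like and fibroblast-like cells had no *Lta* count in either library.

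*Ltb*, the membrane anchor of lymphotoxin alpha, stood at 216 CPM (191 to 243) and 169 CPM (151 to 190) in T-like cells, from 273 and 298 counts. The intervals did not overlap, and the log2 ratio was -0.35 (-0.59 to -0.11). NK-like cells had 36.3 and 66.5 CPM and dendritic-like cells 27.8 and 24.6 CPM, with overlapping intervals, and monocyte-like cells had 3.95 and 3.90 CPM. Within the T-like cells the regulatory T gate, drawn by *Foxp3*, had 446 CPM (333 to 585) and 296 CPM (212 to 401), with a log2 ratio of -0.59 (-1.22 to 0.03). CD8-gated cells had 178 CPM (151 to 207) and 154 CPM (134 to 176), with a ratio of -0.21 (-0.51 to 0.10). The CD4 gate had 262 CPM (162 to 401) and 205 CPM (134 to 301), which overlapped the regulatory gate. The ratios of the regulatory and CD8 gates lay below 0, and both intervals spanned 0.

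*Fasl*, the death ligand of cytotoxic T cells and NK cells, had 72 and 140 counts in T-like cells, or 56.9 CPM (44.6 to 71.7) and 79.6 CPM (66.9 to 93.9). The log2 ratio was 0.48 (0.06 to 0.91), and over 9 alternatives it stayed between 0.48 and 0.58. Among the 4522 genes with at least 100 counts in T-like cells this was rank 121 from the highest ratio. NK-like cells had 42.4 CPM (7 counts) and 74.8 CPM (9 counts), with intervals that overlapped those of T-like cells. The other classes had at most 3 counts a library.

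CD8-gated cells had 58 and 120 *Fasl* counts, or 64.8 CPM (49.2 to 83.7) and 88.4 CPM (73.3 to 106), with a log2 ratio of 0.45 (-0.02 to 0.93). The largest T-like cluster was led by *Gzmf* and *Cd8a*. That cluster held 179 and 285 cells, and its *Fasl* stood at 74.1 CPM (51.0 to 104) and 117 CPM (93.4 to 146), with a log2 ratio of 0.66 (0.06 to 1.29). A second CD8-rich cluster, led by *Gzmb* and *Nrgn*, had 51.3 CPM (32.5 to 77.0) and 50.1 CPM (34.5 to 70.4), a ratio of -0.03. A further cluster, led by *Gimap3* and *Ms4a4b*, had 8 and 11 counts, too few for a ratio. Whether these clusters differ from each other was not tested. The cluster led by *Il2ra* and *Foxp3* had 3 and 5 *Fasl* counts.

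*Tnfsf10*, which encodes TRAIL, was read at a low level in most classes. NK-like cells had 84.7 CPM (14 counts, 46.3 to 142) and 33.2 CPM (4 counts, 9.06 to 85.1), T-like cells 48.2 CPM (36.9 to 62.0) and 33.5 CPM (25.5 to 43.3), and endothelial-like cells 36.4 CPM (21.6 to 57.6) and 58.3 CPM (37.3 to 86.7). These 3 classes overlapped in their intervals, so no order can be given among them. Every other class was at 5.03 CPM or less, apart from 0 and 2 counts in mast-like cells. Because tumor cell-like and macrophage-like cells are many, they still held 35.6% and 17.6% of the 831 *Tnfsf10* UMIs.

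In T-like cells *Tnfsf10* leaned the opposite way to *Fasl*, with a log2 ratio of -0.52 (-1.07 to 0.02) from 61 and 59 counts. CD8-gated cells had 52.5 CPM (38.6 to 69.8) and 33.1 CPM (24.2 to 44.3), a ratio of -0.66 (-1.29 to -0.04). In the cluster led by *Gzmf* and *Cd8a* the levels were 53.9 CPM (34.5 to 80.2) and 25.8 CPM (15.3 to 40.7), a ratio of -1.06 (-2.03 to -0.12). In that cluster the library labelled *Lmo7*-/- therefore carried a higher level of *Fasl* and a lower level of *Tnfsf10*. Stress genes also differed in T-like cells, with *Hspa1a* at 136 and 46.0 CPM and *Fos* at 115 and 60.8 CPM, and their part in these differences was not tested.

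*Tnfrsf1a*, which encodes the death domain receptor TNFR1, was read in the non-lymphoid classes, apart from 0 and 1 counts in the few mast-like cells. Dendritic-like cells had 185 and 190 CPM, endothelial-like cells 182 and 197 CPM, monocyte-like cells 182 and 184 CPM, fibroblast-like cells 136 and 166 CPM and macrophage-like cells 129 and 136 CPM. The first 3 of these classes overlapped in both libraries, as did fibroblast-like with macrophage-like cells, and monocyte-like cells (171 to 194 and 172 to 196) lay above macrophage-like cells (123 to 134 and 131 to 142). Tumor cell-like cells had 61.6 CPM (59.5 to 63.8) and 61.0 CPM (58.5 to 63.6), below all of these. T-like cells were lowest together with NK-like cells, at 20.6 CPM (13.4 to 30.1) and 9.66 CPM (5.63 to 15.5).

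The *Tnfrsf1a* ratio in tumor cell-like cells was -0.01 (-0.09 to 0.07) from 3205 and 2215 counts, which bounds any difference between these libraries to less than 0.1 on the log2 scale for counting error. The macrophage-like ratio was 0.08 (0.00 to 0.17) and the monocyte-like ratio 0.01 (-0.12 to 0.14). In T-like cells the ratio was -1.09 (-2.06 to -0.15) from 26 and 17 counts. *Tnfrsf1a* stood there at 16% and 7.08% of the macrophage-like level, against a median of 1.44% and 0.761% for the 12 macrophage markers, which thus also stood lower in the library labelled *Lmo7*-/-. Their part in the T-like ratio was not tested.

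*Tnfrsf1b*, which encodes TNFR2, had lymphocytes on top. NK-like cells had 424 CPM (330 to 535) and 382 CPM (280 to 510) and T-like cells 388 CPM (355 to 424) and 396 CPM (367 to 426), with overlapping intervals. Monocyte-like cells had 161 CPM in both libraries, macrophage-like cells 145 and 167 CPM and dendritic-like cells 144 and 110 CPM. These 3 overlapped in part, with dendritic-like cells below the other two only in the library labelled *Lmo7*-/-. Endothelial-like (60.7 and 46.1 CPM), fibroblast-like (32.1 and 34.3 CPM) and tumor cell-like cells (10.3 and 10.9 CPM) came last.

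*Tnfrsf1b* was also read in the gated T-like cells. The regulatory T gate had 669 CPM (529 to 834) and 526 CPM (413 to 662), above the CD8 gate in both libraries, at 351 CPM (313 to 392) and 376 CPM (344 to 410). The CD4 gate, at 412 CPM (283 to 578) and 371 CPM (272 to 493), overlapped the regulatory gate, as did T-like cells without a UMI of any gate, at 402 CPM (300 to 527) and 549 CPM (392 to 747). The cluster led by *Il2ra* and *Foxp3* had 627 and 614 CPM. After thinning, 45.2% of 332 and 41.6% of 452 T-like cells had a *Tnfrsf1b* UMI, against 1.88% of 4520 and 1.66% of 3249 tumor cell-like cells. Before thinning the shares were 60.5% and 60.0% against 9.20% and 9.52%.

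*Tnfrsf1b* did not differ in T-like cells beyond counting error (log2 ratio 0.03, -0.14 to 0.20). In macrophage-like cells its ratio was 0.20 (0.13 to 0.28). Of the 7 macrophage-like clusters, the cluster 4 led by *Mmp12* and *Hspa1b*, which also carried *Arg1*, had the highest *Tnfrsf1b*, at 262 CPM (233 to 294) and 331 CPM (303 to 361), a ratio of 0.34 (0.12 to 0.55). In cluster 1 the ratio was 0.00 (-0.12 to 0.13), in cluster 2 0.02 and in cluster 3 0.04. Clusters 1 and 4, where *Tnfrsf1b* was above clusters 2 and 3, held 767 and 242 cells in the *Lmo7*+/+ library and 1529 and 357 cells in the other, and these cluster sizes enter the ratio over all macrophage-like cells. In dendritic-like cells the ratio was -0.40 (-0.76 to -0.04) from 187 and 98 counts.

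*Fas*, the receptor of FAS ligand, was low in most host classes. T-like cells had 16.6 and 13.1 CPM, fibroblast-like cells 16.8 and 28.9 CPM, monocyte-like cells 7.18 and 6.97 CPM and macrophage-like cells 3.84 CPM (2.99 to 4.86) and 6.03 CPM (4.95 to 7.28). NK-like cells had no *Fas* count, and 3 counts, taken as the limit for a count of 0, would be 18.2 and 24.9 CPM there. A cluster of 64 dendritic-like cells led by *Ccl22* and *Ccr7*, genes of mature dendritic cells, had 57.6 CPM (8 counts) and 78.6 CPM (7 counts). In macrophage-like cells the log2 ratio was 0.65 (0.20 to 1.11) from 69 and 109 counts, and over 9 alternatives it lay between 0.57 and 0.76.

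Tumor cell-like cells had 11.1 CPM of *Fas* (10.2 to 12) and 13.2 CPM (12 to 14.4), with a log2 ratio of 0.25 (0.07 to 0.43), and this value depended strongly on which cells the class took in. It was 0.98 under the strict cell filter, 0.56 under the lenient one, 0.46 with doublets removed and -0.21 when only the cells with a tumor marker UMI and no other lineage's UMI were taken. *Fas* was also the member with the largest share of its UMIs outside the named classes. Unnamed clusters held 40.1% of its 2346 UMIs, 28.7% in the *Lmo7*+/+ library and 49.0% in the library labelled *Lmo7*-/-. The cells with the tumor profile were therefore followed cluster by cluster. Their clusters had expression along the chromosomes that departs from leukocytes as in the tumor cells. They also had *Ptprc*, the CD45 gene of blood cells, below 20 CPM. This limit left out the clusters led by *Kcnq1ot1* and *Mid1* and by *Kcnq1ot1* and *Gabre*, whose chromosomes departed likewise. Their *Ptprc* was 96.1 and 37.1 CPM over both libraries.

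The cells with the tumor profile formed 5 clusters, 3 of them named tumor cell-like. The cluster led by *Enpp2* and *Serpine2*, with 889 and 640 cells, was left unnamed. It had the tumor chromosome profile and 5.76 and 3.84 CPM of *Xist*, against 253 and 238 CPM in macrophage-like cells. Its *Ptprc*, low by the definition of these clusters, stood at 10.2 and 7.15 CPM, against 453 and 497 CPM there. The 10 fibroblast markers, however, summed to 8074 and 7815 CPM in this cluster. In it, *Fas* had 196 and 530 counts, or 29.0 CPM (25 to 33.3) and 92.4 CPM (84.7 to 101), with a log2 ratio of 1.67 (1.43 to 1.92). This was rank 25 from the highest among 9262 genes with at least 100 counts. After thinning, 3.49% of 744 cells (2.3% to 5.08%) and 14.1% of 553 cells (11.3% to 17.3%) had a *Fas* UMI, with 145 and 87 left out. Unthinned shares were 16.3% and 38.0% at median depths of 4482 and 6744 UMIs. Macrophage-like cells, where *Fas* is low, had one in 0.671% of 2980 and 0.868% of 3340 thinned cells (2.04% and 2.84% unthinned).

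The cluster led by *Krt19* and *Tex13b*, with 319 and 559 cells, showed the same direction, with 12.2 CPM (8.57 to 16.8) and 28.3 CPM (24.3 to 32.7) of *Fas* and a log2 ratio of 1.22 (0.70 to 1.77). The 2 largest clusters did not. The cluster led by *Tinagl1* and *Klra4*, with 3596 and 2093 cells, had 9.84 and 9.54 CPM (ratio -0.04, -0.30 to 0.21), and that led by the hypoxia gene *Car9*, with 1203 and 973 cells, had 14.5 and 10.9 CPM (ratio -0.41, -0.79 to -0.03). The cluster led by the haemoglobin genes *Hba-a1* and *Hba-a2* had 10 and 17 counts. Over all cells with the tumor profile, 782 and 1025 counts gave 12.7 CPM (11.8 to 13.6) and 23.3 CPM (21.9 to 24.8), a ratio of 0.87 (0.74 to 1.01).

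*Fas* was also read without the cluster borders. Cells with the tumor profile and an *Enpp2* UMI, 690 and 739 cells, had 26.3 CPM (22.9 to 30.1) and 74.5 CPM (68.6 to 80.8), with a log2 ratio of 1.5 (1.27 to 1.74). Those without had 10.7 and 12.2 CPM, a ratio of 0.19 (0.01 to 0.37). A narrower set was also taken. Cells of the *Enpp2* cluster without a UMI of *Dcn*, *Lum*, *Xist*, *Ptprc* or *C1qb*, 266 and 130 cells, had 31.3 CPM (22.3 to 42.6) and 67.1 CPM (46.5 to 93.7), a ratio of 1.10 (0.40 to 1.80). These cells still carried 7420 and 5873 CPM of the 10 fibroblast markers, of which 2 were at 0, so most of that signal remained. Fibroblast-like cells had 16.8 CPM (8.40 to 30.1) and 28.9 CPM (16.5 to 46.9) of *Fas*. The tumor markers also differed, summing to 670 and 352 CPM in the *Enpp2* cluster and to 997 and 436 CPM in the *Krt19* cluster, where the fibroblast markers summed to 820 and 1391 CPM. The part of these markers in the *Fas* difference was not tested. Both ways of selecting cells were chosen after the data were seen.

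**Figure D4:**
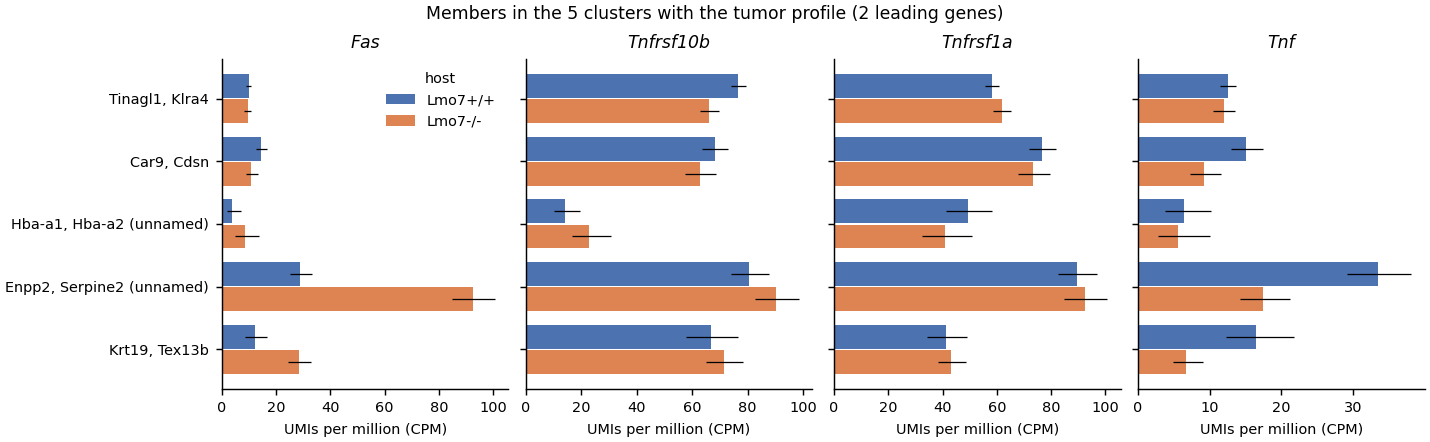
*Fas*, *Tnfrsf10b*, *Tnfrsf1a* and *Tnf* (CPM, with exact Poisson 95% intervals) in the 5 clusters with the tumor profile, with 1 horizontal bar for each library. *Fas* stands apart between the libraries in the clusters led by *Enpp2* (29.0 and 92.4 CPM) and *Krt19* (12.2 and 28.3 CPM), *Tnf* is lower there in the library labelled *Lmo7*-/-, and *Tnfrsf1a* overlaps in all 5 clusters.

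*Tnf* was lower in the library labelled *Lmo7*-/- in the same 2 clusters. It had 33.4 CPM (29.2 to 38.0) and 17.4 CPM (14.2 to 21.2) in the *Enpp2* cluster, with a log2 ratio of -0.94 (-1.29 to -0.59), and 16.5 and 6.69 CPM in the *Krt19* cluster, a ratio of -1.30 (-1.92 to -0.68). The *Car9* cluster had 15.1 and 9.19 CPM (ratio -0.71, -1.12 to -0.32), and the largest cluster had 12.5 and 11.9 CPM (ratio -0.07, -0.30 to 0.15). In the *Enpp2* cells without the host UMIs named above it had 39.1 CPM (50 counts) and 11.8 CPM (6 counts), a ratio of -1.72 (-3.24 to -0.50). The macrophage markers summed to 366 and 385 CPM in the whole *Enpp2* cluster, to 281 and 195.3 CPM in those selected cells and to 198 and 142 CPM in the *Krt19* cluster, and their part in the *Tnf* difference was not tested. *Tnfrsf1a* stayed level in each, at 89.4 and 92.4 CPM in the *Enpp2* cluster and 41.1 and 43.2 CPM in the *Krt19* cluster.

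*Tnfrsf10b*, the mouse TRAIL receptor gene, was the member most bound to tumor cells, which held 76.2% of its 8224 UMIs. GENCODE places it on chromosome 14 at 69767472-69784411. Tumor cell-like cells had 74.1 CPM (71.8 to 76.5) and 66.3 CPM (63.7 to 69.0), and endothelial-like cells 99.2 CPM (73.4 to 131) and 51.0 CPM (31.6 to 78.0). Fibroblast-like cells had 21.4 and 21.7 CPM, T-like cells 7.12 and 10.8 CPM, and macrophage-like cells 3.39 and 2.60 CPM. After thinning, 10.8% of 4520 and 10.5% of 3249 tumor cell-like cells had a *Tnfrsf10b* UMI against 0.604% of 2980 and 0.419% of 3340 macrophage-like cells, and before thinning 43.5% and 40.4% against 1.83% and 1.22%.

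The log2 ratio of *Tnfrsf10b* in tumor cell-like cells was small and below 0, at -0.16 (-0.23 to -0.09). It was -0.22 (-0.31 to -0.12) in the largest cluster and 0.17 (-0.01 to 0.34) in the *Enpp2* cluster, beside 1.67 for *Fas* in the same cells. The *Hba-a1* cluster had the lowest level, 14.3 CPM (38 counts) and 22.9 CPM (45 counts), with a ratio of 0.68 (0.03 to 1.35) and a median mitochondrial share of 0.291% and 0.198%. In endothelial-like cells the ratio was -0.96 (-1.77 to -0.20) from 49 and 21 counts in 99 and 73 cells, and over 9 alternatives it lay between -1.64 and -0.48. The 24 tumor markers summed to 1743 and 1187 CPM in this class, above the 924 and 935 CPM of tumor cell-like cells themselves. Only 3 of them reached 5 CPM there, and *Tm4sf1* stood at 251% and 186% of its tumor cell-like level. The sum therefore does not measure stray tumor RNA, whose part in that ratio was not tested.

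The members that differed between the libraries were counted beside all genes. In macrophage-like cells 1 of the 7 members with at least 20 counts, *Fas*, differed at least 1.5-fold in either direction, against 10.6% of 12062 genes. In monocyte-like cells it was 1 of 7, *Tnfsf10* (5.03 and 3.28 CPM, from 28 and 16 counts), against 9.4% of 10442 genes. In tumor cell-like cells it was 0 of 6, against 7.89% of 13841 genes. In T-like cells it was 3 of 9, *Tnf*, *Tnfrsf10b* and *Tnfrsf1a*, against 13.9% of 8814 genes, none of them with more than 35 counts in a library. The intervals of *Tnf* (-0.24 to 1.61) and *Tnfrsf10b* (-0.61 to 1.93) spanned 0. In the *Enpp2* cluster it was 2 of 6, *Fas* and *Tnf*, against 15.3% of 11764 genes, and over all cells with the tumor profile 1 of 7, *Fas*, against 8.92% of 14247 genes. Each of these counts rested on at most 3 genes. The *Enpp2* cluster and all cells with the tumor profile share cells and were taken up because of *Fas*, so their counts are no independent support. In the other named classes the counts were 1 of 4 in dendritic-like (17.1% of all genes), 2 of 4 in endothelial-like (23.0%), 1 of 5 in fibroblast-like (25.9%) and 0 of 1 in NK-like cells (23.7%). Mast-like cells had no member with enough counts. The median log2 ratio of the members was 0.19 in macrophage-like, -0.02 in monocyte-like, -0.35 in T-like and -0.09 in tumor cell-like cells, beside -0.11, -0.03, -0.06 and -0.05 for all genes.

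**Figure D5:**
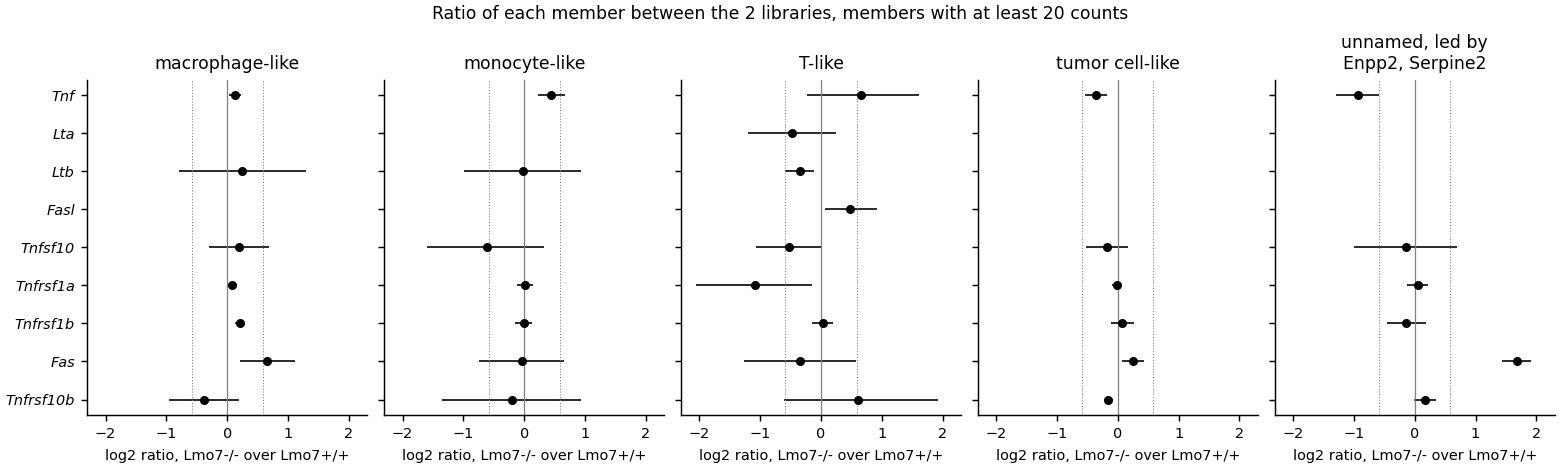
Log2 ratio of each member with at least 20 counts (library labelled *Lmo7*-/- over *Lmo7*+/+) with its 95% counting interval in 5 cell classes, with dotted lines at 1.5-fold in each direction. *Fas* in the *Enpp2* cluster (1.67) lies farthest above 0 with a narrow interval, and *Tnf* in the same cluster (-0.94) lies below.

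The pathway around the members was read in 5 lists: 13 other ligands, 24 other receptor genes, 29 genes of the receptor complexes and of death signalling, 22 NF-kB response genes and 9 genes that control TNF mRNA or shedding. The receptor complex list, with adaptors such as *Fadd*, kinases such as *Ripk1* and *Casp8*, the initiator caspase of death receptors, differed little. In macrophage-like and in tumor cell-like cells 0 of its 29 genes passed 1.5-fold, and its medians were -0.02 and -0.03, beside 1276 of 12062 and 1092 of 13841 genes in all. *Casp8* had 88.2 and 80.4 CPM in tumor cell-like cells and *Cflar*, its inhibitor, 46.0 and 49.3 CPM.

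NF-kB response genes were counted by class, and differences between classes were not tested. In macrophage-like cells 2 of 22 were higher in the library labelled *Lmo7*-/- by more than 1.5-fold, the chemokine genes *Ccl5* (143 and 517 CPM, log2 ratio 1.85) and *Cxcl1* (133 and 300 CPM, 1.18), none was lower, and the median was 0.13. Of all 12062 genes there, 472 were higher and 804 lower, and the count for the list rests on 2 genes. In T-like cells 6 of the 20 with enough counts were lower and none higher, with a median of -0.35, beside 785 lower and 437 higher of 8814 genes. Among these were *Zfp36*, which encodes a protein that destabilises *Tnf* mRNA (227 and 133 CPM, -0.77), and *Il1b* (51.4 and 33.0 CPM, -0.64). *Nfkbia*, the inhibitor that NF-kB itself induces, had 442 and 323 CPM (-0.45) there, whereas *Tnfaip3*, a brake on TNFR1 signalling, had 714 and 711 CPM. The macrophage markers, which summed to 252 and 209 CPM in T-like cells, and the stress genes *Hspa1a* and *Fos* were also lower there. Their part in these T-like differences, that of *Il1b* included, was not tested.

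In tumor cell-like cells 3 of 22 NF-kB response genes were lower and none higher, with a median of -0.14, beside 627 lower and 465 higher of 13841 genes. They were *Cxcl2* (80.2 and 44.2 CPM, -0.86), *Rel* (14.1 and 8.79 CPM, -0.69) and *Il6* (1.81 and 1.19 CPM, -0.61), and *Tnfaip3* had 127 and 85.3 CPM (-0.58). In the *Enpp2* cluster the list split, with *Tnfaip2* (178 and 297 CPM), *Sod2* (100 and 161 CPM) and *Vcam1* (517 and 822 CPM) higher and *Il6* (14 and 4.01 CPM) and *Cxcl2* (91.9 and 40.6 CPM) lower, that is 5 of 22 beside 1799 of 11764 genes. In monocyte-like cells *Ccl5* (96.1 and 158 CPM), *Cxcl1* (81.5 and 137 CPM) and *Vcam1* (56.9 and 92.9 CPM) were higher and *Il6* lower, 4 of 22 beside 982 of 10442 genes.

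Among the other ligands and receptors, genes that passed 1.5-fold were counted beside all genes. In macrophage-like cells these were *Tnfsf15*, the ligand TL1A (4.06 and 12.5 CPM, log2 ratio 1.62), *Tnfsf8*, the CD30 ligand (14.2 and 8.97 CPM, -0.66), and *Relt* (16.1 and 10.5 CPM, -0.62), of 8 ligand and 14 receptor genes with enough counts. Of all 12062 genes in macrophage-like cells, 1276 passed it. In tumor cell-like cells 2 of 17 receptor genes were higher and 2 lower, and 0 of 7 ligand genes passed. Of all 13841 genes in these cells, 465 were higher and 627 lower. *Eda2r*, a receptor gene that p53 is known to induce, was higher there (2.46 and 6.23 CPM, 1.34) and in the *Enpp2* cluster (6.80 and 22.1 CPM, 1.70). Of the 9 genes that control TNF mRNA or shedding, none passed 1.5-fold in macrophage-like cells, and *Adam17*, the protease that sheds TNF, had 206 and 224 CPM.

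Across 9 classes in both libraries (18 points), the genes whose log2(CPM + 1) followed each member most closely were named by Pearson's r among genes with at least 200 counts. These points share libraries and depths, so the values describe the pattern only. *Lta* was closest to *Cd5* (0.978), a T cell surface gene, *Ltb* to *Il2ra* (0.952), *Fasl* to the NK receptor gene *Klrc1* (0.980) and *Tnfrsf1b* to the leukocyte integrin gene *Itgal* (0.975). *Tnfrsf1a* was closest to *Zfp36* (0.962) and *Tnfaip2* (0.952), and *Tnfrsf10b* to *Phlda3* (0.937). *Tnf* (*Ethe1*, 0.906), *Tnfsf10* (*Gimap9*, 0.920) and *Fas* (*Mtg1*, 0.890) had looser neighbours.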

How the data were processed

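Live tumor cells were profiled by single-cell RNA sequencing in 2 libraries. The authors deposited raw UMI counts per gene and cell, unnormalized. The submitters' processing notes name Cell Ranger 2.1.1 and mm10. A cell was kept from 500 detected genes and 1000 UMIs upwards when mitochondrial genes held no more than 15% of its UMIs, since the study gives no values for its own filters. This left 83.55% and 78.22% of 16208 and 15163 droplets, which held 98582479 and 80648345 UMIs. Counts were scaled to 10000 per cell and logged, and all cells entered a joint graph clustering (2000 variable genes, 30 principal components, 20 neighbours, resolution 0.5). Clusters without a name were split further from 100 cells upwards unless they had the tumor profile, so unnamed tumor-profile clusters were kept whole.

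A cluster was named from fixed marker lists with at least 3 markers at 5 CPM. Tumor cell-like clusters were also named by expression along the chromosomes and by *Ptprc* below 20 CPM. The score limits of these names were set after the data were seen. Scrublet marked 2.82% and 2.37% of the cells as doublets, which were kept in the reported values. CD8, CD4 and regulatory T gates were drawn among T-like cells by UMIs of *Cd8a* or *Cd8b1*, *Cd4* and *Foxp3*. The genes of this report, the pathway lists and the comparisons were chosen with earlier results of these data known.

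Counts were summed per class and library and given as CPM. A log2 ratio was read only where both libraries together held at least 20 counts, and genes differing at least 1.5-fold were counted. No p-value was computed, since cells are not replicates. Pathway genes named as examples were chosen after their values were seen. *Mir6974*, *Mir6973a* and *Gm27818* overlap *Lta*, *Ltb* and *Fas* on the same strand, so reads there are uncertain. Alternatives changed the filters (lenient and strict), the doublets, the resolution (1.0), the components (20), the scaling (TMM or per-cell means), the cells of a class, the minimum count (4 or 50) and the thinning, and cells whose barcode occurs in both libraries were left out as a later addition. The ratio intervals and the 1.5-fold calls were tested on simulated Poisson counts. The filtering, clustering, naming, gating and thinning steps were not. Python 3.11.15 was used with numpy (2.4.6), scipy (1.17.1), pandas (2.3.3), scanpy (1.11.5) and igraph (0.11.9), and edgeR 4.0.16 under R 4.3.3 for TMM factors.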

Additional observations from a re-analysis of the deposited data

Results flagged for a closer look

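Across the named classes and the unnamed tumor-profile clusters, the effect of the library on 4 genes differed in direction, with counting intervals on opposite sides of 0. None of these differences was tested, because each genotype has 1 library. *Tnf* was higher in the library labelled *Lmo7*-/- in macrophage-like (log2 ratio 0.127), monocyte-like (0.449) and dendritic-like cells (1.37, from 9 and 16 counts). It was lower in tumor cell-like cells (-0.362) and in the unnamed tumor-profile cluster led by *Enpp2* and *Serpine2* (-0.938). The macrophage-like ratio became -0.0723 at a resolution of 1.0. The tumor cell-like ratio became 0.215 when only cells with own markers and no other lineage's were taken. *Tnfrsf1a* was higher in macrophage-like cells (0.0848) and lower in T-like cells (-1.09). *Tnfrsf1b* was higher in macrophage-like cells (0.203) and lower in dendritic-like cells (-0.396). *Tnfrsf10b* was higher in the tumor-profile cluster led by *Hba-a1* and *Hba-a2* (0.683) and lower in tumor cell-like (-0.161) and endothelial-like cells (-0.96). *Fas* differed in direction only once tumor cell-like cells were split into clusters, with -0.41 in the cluster led by *Car9* and 1.22 in that led by *Krt19*. In the unnamed tumor-profile cluster led by *Enpp2* its log2 ratio was 1.67.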

How the results depend on the processing

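Under the alternatives, 373 of 391 log2 ratios of members stayed within the counting interval of the reported value, 16 left it and 2 that were past 1.5-fold changed sign. These 2 were both *Tnfrsf10b* in T-like cells (28 counts), at -0.0737 under the strict filter and -0.0343 with 20 principal components. Sign changes of ratios under 1.5-fold were not counted apart, and ratios near 0 often changed sign. That of *Tnfrsf1b* in monocyte-like cells (-0.006) kept its sign in 2 of 9 alternatives. That of *Tnfrsf1a* in tumor cell-like cells (-0.01) kept it in 3 of 9. The number of members past 1.5-fold in macrophage-like cells (1) became 0 with 20 principal components and 2 with a minimum of 4 counts. In tumor cell-like cells (0) it became 1 under the strict filter and 2 with a minimum of 4 counts. In T-like cells (3) it became 1 under the lenient filter, 0 under the strict filter, 1 at resolution 1.0 and 1 with a minimum of 50 counts. Apart from the values given beside the results, *Tnf* in monocyte-like cells moved to 0.71 (lenient filter), *Tnfrsf1a* in dendritic-like cells to 0.59 (strict filter), and *Tnfrsf1a* and *Tnfrsf1b* in fibroblast-like cells to -0.15 and -1.32 (cells with own markers only). TMM scaling gave 0.19 and 0.31 for *Tnfrsf1a* and *Tnfrsf1b* in macrophage-like cells, both above 0 as reported. Of 56 shares of cells, 51 moved without thinning. The cause of these shifts was not tested. No paired analysis was possible because each genotype has 1 library. Depth limits *Lta* and *Fasl* outside lymphocytes and *Tnfsf10* in dendritic-like (5 and 1 counts) and fibroblast-like cells (2 and 2 counts). It also limits all values of NK-like and mast-like cells apart from *Tnfrsf1b* in NK-like cells (70 and 46 counts).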

Other observations

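In the *Enpp2* cluster, where *Fas* was at 29.0 and 92.4 CPM, 4 other genes were also higher in the library labelled *Lmo7*-/-. They were chosen after their values were seen and stand for no gene group. *Cxcl9* stood at 177 and 847 CPM, *Cxcl10* at 404 and 1371 CPM, *Gbp4* at 28.5 and 120 CPM and *Cd274*, which encodes PD-L1, at 21.9 and 92.9 CPM. *Enpp2* itself stood at 222 and 577 CPM, and *Col1a1* at 2818 and 2771 CPM. In tumor cell-like cells *Cxcl9* stood at 53.7 and 111 CPM and *Gbp4* at 13.5 and 38.0 CPM, while *Fas* stood at 11.1 and 13.2 CPM.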
